A study of Mus musculus with 72 samples.

Results

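The metallothioneins and the zinc-handling genes around them were followed as 5 genes, Mt1, Mt2, Mt3, Mtf1 and Slc30a1, of 25124 in the RNA table, and as the 14 ATAC peaks annotated to them, of 51983 peaks. Mt1 had 3 of these peaks, Mt2 2, Mt3 1, Mtf1 3 and Slc30a1 5. All 14 peaks and all 5 genes passed the filters on low values, Mt3 only through its shSMRT libraries. The genes were chosen by name, with the rise of Mt3 in the RNA of shSMRT cells already known. For these 5 genes the RNA values of shSMRT are therefore given as a description with no test, and tests are given for ATAC and, except for Mt3, for the RNA of shNCOR against shGFP.

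The cells were RAW264.7, a mouse macrophage-like line that the labels give as BALB/c, carrying lentiviral short hairpin RNAs and kept without treatment. The control group carried a hairpin against GFP (shGFP), and the other groups carried one against NCOR (shNCOR) or SMRT (shSMRT), so the controls had been through lentiviral infection as well. NCOR and SMRT are related corepressors that join histone deacetylase complexes to transcription factors. Each group had 3 RNA-seq and 3 ATAC-seq libraries, and the other 54 of 72 samples were not analysed here. The labels do not give the number of hairpins per target. Beyond replicate wells of wild-type cells in their text on ATAC, they do not give separate cultures for the 3 libraries. A p-value here therefore reflects only how far these libraries vary, and that variation may be technical.

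Metallothioneins are small, cysteine-rich proteins that bind zinc and copper and buffer the free metal in a cell. Mt1 and Mt2 are expressed in most tissues and are induced by zinc, cadmium, oxidants and glucocorticoids, whereas Mt3 is known mainly from the brain and Mt4 from stratified epithelium. Mtf1 encodes the zinc-sensing transcription factor that binds metal response elements in the promoters of Mt1, Mt2 and Slc30a1, and Slc30a1 encodes ZnT1, the zinc exporter of the plasma membrane.

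The RNA libraries held 39.15 to 49.09 M reads (M, mega), with 90.9 to 92.8% in exons, and the ATAC libraries 6.06 to 10.84 M, with 50.6 to 54.0% in peaks in shGFP, 54.7 to 55.7% in shNCOR and 47.6 to 49.9% in shSMRT. Ncor1, the gene of NCOR, had a mean of 4.04 ± 0.372 RPKM under its own hairpin (reads per kilobase of exon, per M reads of the library; SD, n = 3), 19.1 ± 0.973 with shGFP and 19.8 ± 0.748 with shSMRT. Macrophage markers were present, with 9 of 10 tested, including Lyz2, Csf1r and Cd14, and their summed level was 7102 to 7249 RPKM in shGFP, 8242 to 8529 in shNCOR and 10040 to 10580 in shSMRT. Lyz2 made up most of this sum, and the other 9 markers summed to 1950 to 1979, 1801 to 1812 and 2182 to 2216 RPKM. Fibroblast and epithelial markers were at or near 0: 6 of 8 had no value above 0 in any library, and the sum of all 8 did not exceed 0.017 RPKM.

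The 4 metallothionein genes lie in a row on chromosome 8, all on the + strand, in the mm10 build: Mt4 at chr8:94137204-94139031, Mt3 at chr8:94152607-94154148, Mt2 at chr8:94172618-94173567 and Mt1 at chr8:94179089-94180327. Mtf1 lies at chr4:124802549-124849800 and Slc30a1 at chr1:191906781-191913247, also on the + strand. Here are the 250 bases before the start site of the 4 genes on which the results turn, read 5′ to 3′ from RefSeq (GRCm38.p6, the assembly of mm10). All 5 genes and Mt4 were matched by symbol. Capitals mark the metal response element core, searched as TGCACNC or TGCGCNC on both strands, and in Mt2 also 1 AP-1 motif (TGANTCA), the binding site of stress-responsive factors of the Fos and Jun families. In these windows no match of either motif overlapped another.
Mt2, chr8:94172368-94172617: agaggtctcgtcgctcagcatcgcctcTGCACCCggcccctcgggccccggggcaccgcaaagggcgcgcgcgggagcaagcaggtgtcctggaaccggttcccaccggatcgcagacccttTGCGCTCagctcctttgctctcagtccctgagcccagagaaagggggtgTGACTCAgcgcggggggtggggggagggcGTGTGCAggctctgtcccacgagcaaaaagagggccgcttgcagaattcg
Mt1, chr8:94178839-94179088: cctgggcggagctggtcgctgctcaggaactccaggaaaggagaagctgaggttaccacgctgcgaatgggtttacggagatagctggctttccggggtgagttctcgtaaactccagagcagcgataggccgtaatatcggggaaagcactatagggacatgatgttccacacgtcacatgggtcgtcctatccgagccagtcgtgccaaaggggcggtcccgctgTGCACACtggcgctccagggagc
Slc30a1, chr1:191906531-191906780: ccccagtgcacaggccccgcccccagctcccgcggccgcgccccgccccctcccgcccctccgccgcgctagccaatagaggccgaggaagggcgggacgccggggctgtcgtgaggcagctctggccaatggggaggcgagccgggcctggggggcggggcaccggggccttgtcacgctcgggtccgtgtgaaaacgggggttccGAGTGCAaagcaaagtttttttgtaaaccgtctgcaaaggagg
Mt3, chr8:94152357-94152606: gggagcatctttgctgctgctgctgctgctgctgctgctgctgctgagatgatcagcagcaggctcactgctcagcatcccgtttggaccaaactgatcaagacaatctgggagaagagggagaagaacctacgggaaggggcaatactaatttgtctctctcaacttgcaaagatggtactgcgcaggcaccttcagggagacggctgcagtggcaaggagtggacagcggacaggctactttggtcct

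The Mt2 window held 3 cores, at -223 to -217, -128 to -122 and -50 to -44 from the start site, and the AP-1 motif at -79 to -73. Mt1 held 1 core at -23 to -17 and Slc30a1 1 at -43 to -37. Neither the Mt3 nor the Mtf1 window held these letters, and the Mt4 window held 1 core at -91 to -85. Over 32851 mouse promoters of the same length, 21.4% held at least 1 core, 1.26% held 3 or more and 6.75% held the AP-1 motif. An ATAC peak covered part of the window of Mt1, Mt2, Mtf1 and Slc30a1, and no peak covered that of Mt3 or Mt4. The Mt2 peak took in 2 of the 3 cores and the AP-1 motif, and the peaks of Mt1 and Slc30a1 took in the single cores of their windows. Bases after the annotated start, which these peaks also cover, were not searched, so the counts of cores depend on that start.

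Mt1 was by far the most abundant of the 5 genes, and Mt3 the one that differed most between groups. On the RPKM scale, which is per length, the order of the mean levels in shGFP was Mt1, Mt2, Slc30a1, Mtf1 and Mt3, ranks 155, 627, 6890, 8479 and 9423 of 25124 genes by mean over all libraries. In shSMRT the order was Mt1, Mt2, Slc30a1, Mt3 and Mtf1. No neighbours in either order overlapped in their 3 libraries.

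**Figure D1:**
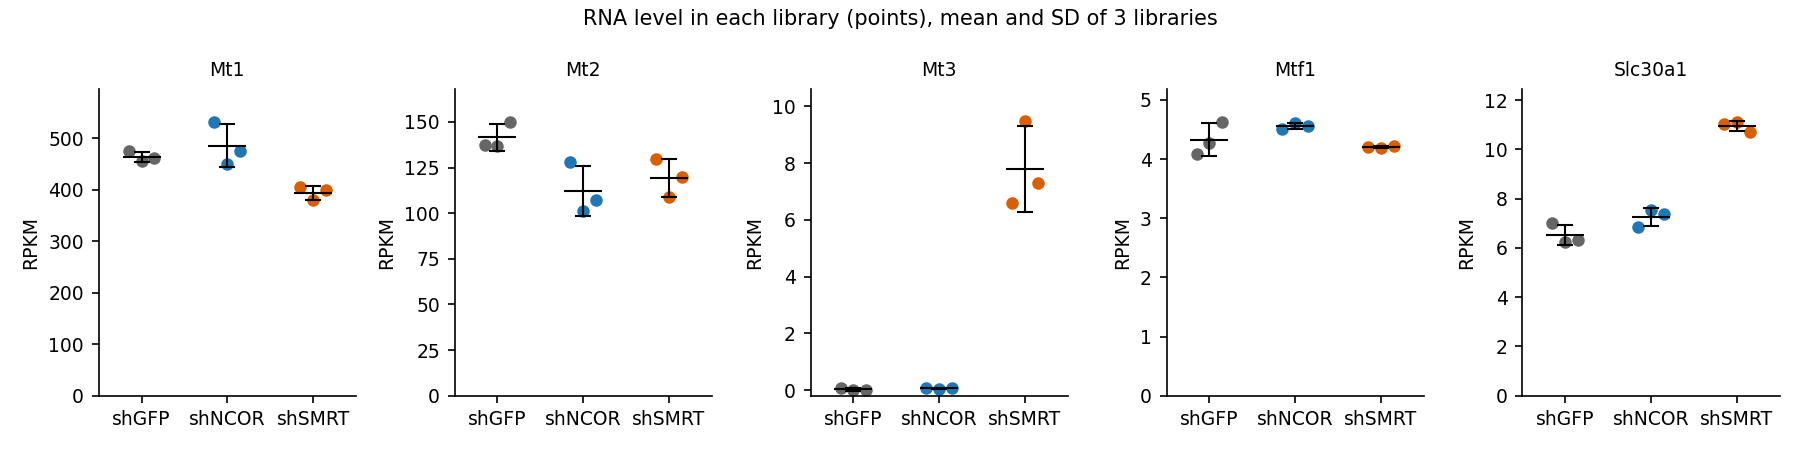
RNA level (RPKM, linear axes from 0) of the 5 genes in each of 9 libraries; points are libraries, and the bar and whiskers are the mean and SD of 3 libraries. Mt3 lies between 0 and 0.095 RPKM in the shGFP and shNCOR libraries and between 6.58 and 9.47 in shSMRT, and Slc30a1 between 10.7 and 11.1 in shSMRT against 6.24 to 7.55 in the other 6.

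Mt3, the brain metallothionein, was near 0 without the SMRT hairpin. It was listed at 0.087, 0 and 0 RPKM in shGFP, 0.076, 0.042 and 0.095 in shNCOR, and 6.58, 9.47 and 7.31 in shSMRT. These values correspond to 2, 0 and 0 reads, 2, 1 and 2 reads, and 155, 214 and 157 reads. Every shSMRT library lay above all 6 others, and the shGFP and shNCOR libraries overlapped. Pooled over 3 libraries and per M reads, the shSMRT level was 252.1 times that of shGFP (exact 95% interval of the read counts 69.5 to 2087; 526 against 2 reads) and 110.1 times that of shNCOR (46.9 to 340.4; 526 against 5 reads). These intervals cover counting error only, and describe a rise by which the genes were chosen. The fitted log2 difference, 3.08 ± 0.11 (SE) against shGFP, is on the log2(RPKM + 1) scale, which understates the change of a gene this low. Between shNCOR and shGFP, with 0 to 2 reads a library, the pooled ratio was 2.29 with an interval of 0.375 to 24.1, and a difference was not detectable at this depth.

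The listed neuron and astrocyte markers were near 0 in the same libraries. Of 6 neuron markers, Rbfox3, Snap25, Syt1 and Nefl were listed at 0 in all 9 libraries. The summed level of the 6 was 0.009 to 0.127 RPKM in shGFP, 0 to 0.026 in shNCOR and 0.174 to 0.277 in shSMRT, where Map2, a microtubule protein, gave 0.171 to 0.248. The neuron list leaves out Uchl1, which was at 0.651 to 1.118 RPKM in shGFP, 0.637 to 1.115 in shNCOR and 11.3 to 11.9 in shSMRT. Gfap and Aqp4, which define astrocytes, stayed at or below 0.07 RPKM. The sum of 5 astrocyte markers was 0.899 to 1.16 in shGFP, 0.383 to 0.54 in shNCOR and 0.471 to 0.503 in shSMRT, nearly all of it from Aldh1l1, a folate enzyme. In bulk RNA, fewer cells of a type and less RNA per cell cannot be told apart.

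Of the ubiquitous metallothioneins, Mt2 but not Mt1 was called lower in shNCOR. Mt1 was at 475, 456 and 461 RPKM in shGFP and at 532, 450 and 475 in shNCOR, overlapping ranges with a log2 difference of 0.06 ± 0.05 that was not called (limma, adjusted p = 0.383). Mt2 was at 138, 137 and 150 RPKM in shGFP and at 128, 101 and 107 in shNCOR. Every shNCOR library was below every shGFP library, and Mt2 fell by 0.34 ± 0.08 on the log2 scale (limma, adjusted p = 0.00746). Of the 4 members tested, only Mt2 was called in this contrast, in which 37.6% of the 10789 genes tested were called. The groups did not overlap, in either direction, at 48.1% of these genes. That share was 63.1% in shSMRT against shGFP and 58.9% in shSMRT against shNCOR.

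The balance of the pair was then compared within each library. The ratio of Mt1 to Mt2 in RPKM was 3.45, 3.33 and 3.07 in shGFP, 4.16, 4.45 and 4.43 in shNCOR, and 3.12, 3.48 and 3.33 in shSMRT. All 3 shNCOR libraries lay above the other 6, while shGFP and shSMRT overlapped. The difference between shNCOR and shGFP had a two-sided exact permutation p of 0.1, the smallest that 3 against 3 libraries allow. Mt1 and Mt2 are close copies, so reads that the counting could assign to either gene leave the ratio uncertain.

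In shSMRT both genes were lower than in the controls. Mt1 was at 405, 379 and 399 RPKM, below all libraries of the other groups, a log2 difference of -0.23 ± 0.05 from shGFP. Mt2 was at 130, 109 and 120 RPKM, below the 3 shGFP libraries and overlapping shNCOR, a difference of -0.25 ± 0.08 from shGFP and 0.09 ± 0.08 from shNCOR. The summed level of Mt1, Mt2 and Mt3 was 521.5 ± 22.3 RPKM in shSMRT (SD, n = 3), 605.6 ± 10.7 with shGFP and 597.9 ± 55.6 with shNCOR. Mt3 made up 1.21, 1.9 and 1.39% of that sum in the shSMRT libraries, so the family's RNA stayed almost wholly Mt1 and Mt2. Mt4, the epithelial metallothionein, was listed at 0 in all 9 libraries.

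Mtf1, the zinc sensor, overlapped the control in both knockdowns, and Slc30a1, the exporter it is known to induce, was higher in shSMRT. Mtf1 was at 4.08, 4.27 and 4.63 RPKM in shGFP, 4.52, 4.61 and 4.55 in shNCOR and 4.20, 4.20 and 4.22 in shSMRT. Its log2 difference in shNCOR was 0.06 ± 0.05 and was not called (limma, adjusted p = 0.391), and in shSMRT it was -0.03 ± 0.05. Slc30a1 was at 7.01, 6.24 and 6.34 RPKM in shGFP, 6.84, 7.55 and 7.39 in shNCOR and 11.0, 11.1 and 10.7 in shSMRT. The shSMRT libraries lay above the other 6, with log2 differences of 0.67 ± 0.05 from shGFP and 0.53 ± 0.05 from shNCOR. In shNCOR its difference of 0.13 ± 0.05 was not called (limma, adjusted p = 0.0697). It was called without shGFP replicate 1 (0.18; limma, adjusted p = 0.0271) or without shNCOR replicate 1 (0.17, adjusted p = 0.0334). Leaving out replicate 2 or 3 of either group weakened it (0.11 to 0.12; limma, adjusted p = 0.162 to 0.194).

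Accessibility was measured in libraries of its own, and the counts of called peaks depended on the scaling. Peaks are assigned to the gene with the nearest start site, which does not show that they act on it. A value is the number of reads in a peak per 10 M reads of the library. Calls were made at 8.58% of 51469 peaks in shNCOR against shGFP, 17.7% in shSMRT against shGFP and 24.4% in shSMRT against shNCOR. The groups compared did not overlap, in either direction, at 25.9%, 35.2% and 35.7% of these peaks. Of the called peaks, 53.4%, 38.5% and 28.4% were higher, and with values scaled to the reads in peaks these shares were 36.2%, 61.9% and 66.5%. That scaling moved the median log2 difference of all peaks from 0.048 to -0.02, from -0.092 to 0.001 and from -0.119 to 0.041 in the 3 contrasts. Shares of 44.9%, 56.7% and 59.7% were found with quantile normalization, and of 40.9%, 62.4% and 65.2% with voom on recovered reads.

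Of the 14 peaks of the 5 genes, limma called 0 in shNCOR against shGFP, where 2 had an unadjusted p under 0.05 and voom also called 0. In shSMRT against shGFP it called 5, or 35.7%, 2 higher and 3 lower, with a median difference of -0.16 beside -0.092 over all peaks. In shSMRT against shNCOR it called 6, or 42.9%, all lower, with a median of -0.22 beside -0.119. With voom the counts were 4 and 2, beside 8864 and 6494 of all 51469 peaks. The contrasts share libraries, so these counts are not independent.

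The promoter peak of Mt2 (chr8:94172421-94172860, centred 22 bases after the start site) lost accessibility in shSMRT. Its values were 192, 163 and 181 in shGFP, 182, 175 and 179 in shNCOR, and 97.7, 116 and 116 in shSMRT, every shSMRT library below the other 6. The log2 difference was -0.68 ± 0.12 from shGFP (limma, adjusted p = 4.35e-05) and -0.68 ± 0.12 from shNCOR (limma, adjusted p = 4.1e-05), and it kept its call under all 16 alternatives in both contrasts. In shNCOR the difference from shGFP was 0.00 ± 0.12 (limma, adjusted p = 0.994), beside the lower Mt2 RNA there. This peak is the one that takes in 2 of the 3 cores and the AP-1 motif found in the window before the start.

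The promoter peak of Mt1 (chr8:94178827-94179289) was the most open of the 14, at 490, 442 and 502 in shGFP, 516, 566 and 530 in shNCOR and 409, 445 and 430 in shSMRT. It was not called in shSMRT against shGFP (-0.16 ± 0.08; limma, adjusted p = 0.184) or in shNCOR against shGFP (0.17 ± 0.08; adjusted p = 0.208). The call against shNCOR (-0.32 ± 0.08; limma, adjusted p = 0.00259) ended with quantile normalization (-0.02), scaling to the reads in peaks (-0.15) and voom (-0.15). The peak 4297 bases downstream of the Mt1 start (chr8:94183251-94183521), at 134 to 198 over the 9 libraries, was called in shSMRT against shNCOR alone (-0.37 ± 0.11; adjusted p = 0.0141), and that call ended under the same 3 settings and without shNCOR replicate 2 or shSMRT replicate 3.

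Further downstream, the peak at 12349 bases from its start (chr8:94191172-94191704), over a SINE repeat, was at 293, 292 and 270 in shGFP, 352, 319 and 336 in shNCOR and 205, 247 and 243 in shSMRT, with no overlap between any 2 groups. It was lower in shSMRT than in shNCOR under every alternative run (-0.53 ± 0.10; limma, adjusted p = 6.52e-05; -0.26 and adjusted p = 0.0309 with quantile normalization), whereas its call against shGFP (-0.30 ± 0.10; adjusted p = 0.0249) ended under those 3 settings and without any 1 of 3 libraries (shGFP replicate 1 or 2, or shSMRT replicate 1).

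**Figure D2:**
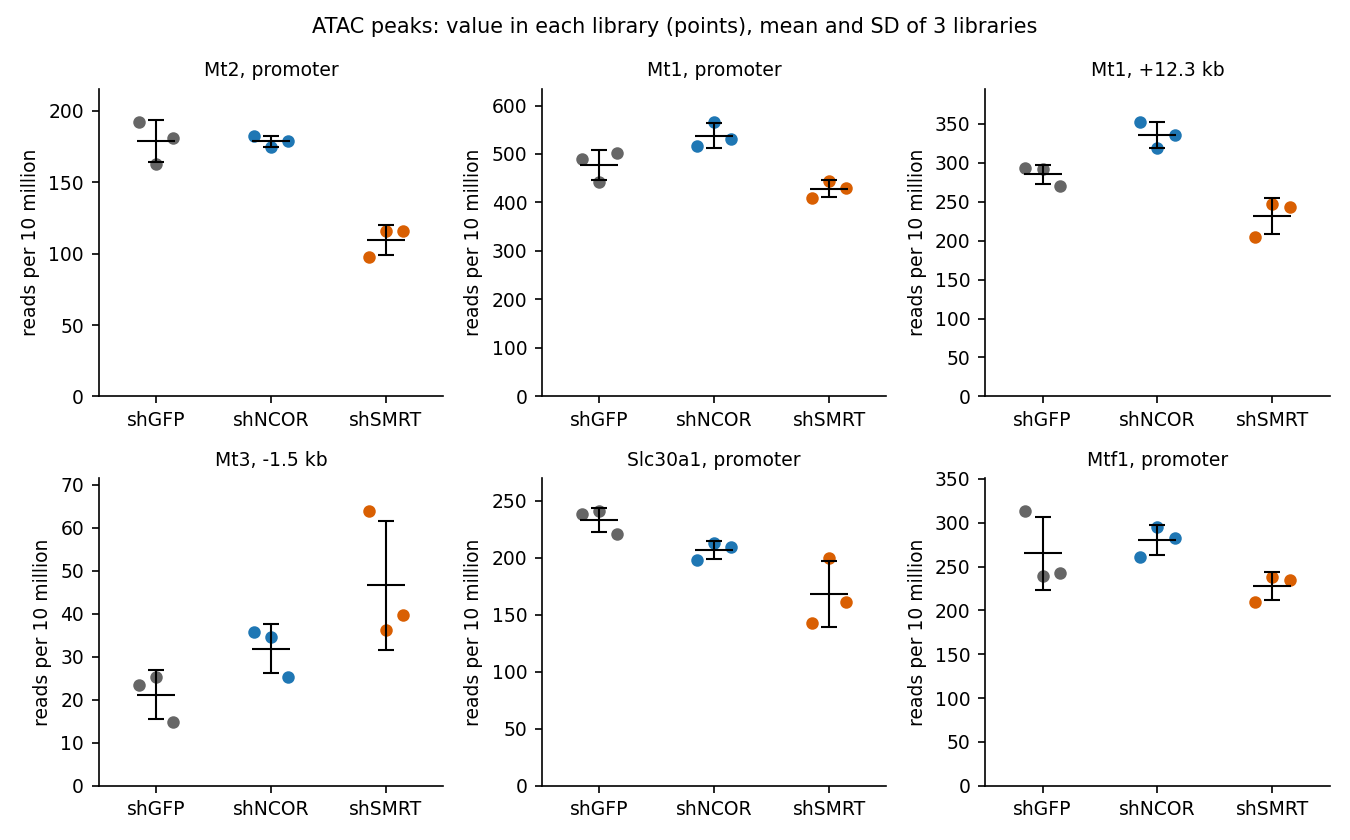
Accessibility (reads per 10 M, linear axes from 0) of 6 peaks in each of 9 ATAC libraries; points are libraries, and the bar and whiskers are the mean and SD of 3. The shSMRT libraries lie below the other 6 at the Mt2 promoter (97.7 to 116 against 163 to 192). At the peak before Mt3 they lie above the other 6 (36.3 to 63.9 against 14.8 to 35.6), but only narrowly above shNCOR, and that difference was not called.

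The only peak annotated to Mt3 lay 1518 bases before its start (chr8:94150947-94151232, intergenic) and was weak. Its values were 23.5, 25.3 and 14.8 in shGFP, 35.6, 34.7 and 25.4 in shNCOR and 63.9, 36.3 and 39.6 in shSMRT. The 3 groups did not overlap, although the highest shGFP and the lowest shNCOR libraries lay side by side. The highest shNCOR and the lowest shSMRT libraries were also close. Accessibility of this peak rose in shSMRT against shGFP by a log2 difference of 0.97 ± 0.28 (limma, adjusted p = 0.0129). This call ended without shGFP replicate 3 (0.77, adjusted p = 0.0897) or without shSMRT replicate 1 (0.74, adjusted p = 0.138). In shNCOR the difference from shGFP was 0.51 ± 0.28 (limma, adjusted p = 0.291), and that between shSMRT and shNCOR was 0.46 ± 0.28 (adjusted p = 0.246).

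Upstream of Mt3, near the silent Mt4, 2 further peaks were higher in shSMRT. The peak 2412 bases before the start of Mt4 (chr8:94134619-94134966) was at 68.2, 66.6 and 90.4 in shGFP, 123, 92.4 and 110 in shNCOR, and 115, 136 and 133 in shSMRT. Both knockdowns lay above the control, by 0.74 ± 0.15 in shSMRT (limma, adjusted p = 0.000366), kept under all 16 alternatives, and by 0.51 ± 0.15 in shNCOR (adjusted p = 0.025), lost under 7 of 16, among them each of the 3 other scalings. The peak between Mt4 and Mt3 (chr8:94141319-94141589) was at 17.9, 11.3 and 20.3 in shGFP, 27.7, 16.5 and 8.88 in shNCOR and 54.5, 32.9 and 48.1 in shSMRT. It was higher in shSMRT than in shGFP by 1.22 ± 0.33 (limma, adjusted p = 0.0068; 1.09 and adjusted p = 0.0573 without shSMRT replicate 1) and than in shNCOR by 1.21 ± 0.33 (adjusted p = 0.00552).

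Along the whole cluster, the 115.2 kb between the neighbouring genes Bbs2 and Nup93 held 11 peaks. In shSMRT against shGFP 5 of them were called (45.5%, beside 17.7% of all peaks), the 3 higher ones all at the Mt4 and Mt3 end and the 2 lower ones at the Mt2 and Mt1 end. The NCOR hairpin gave 1 call (9.09%, beside 8.58%), the higher peak before Mt4. Between the knockdowns 5 were called (45.5%, beside 24.4%), 1 higher and 4 lower in shSMRT. With voom 4, 0 and 3 of the 11 were called, beside 8864, 3567 and 6494 of all 51469 peaks. The remaining peaks, 1 further from Mt4, 1 before Mt2 and 2 on the Nup93 side, were not called in any contrast.

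**Figure D3:**
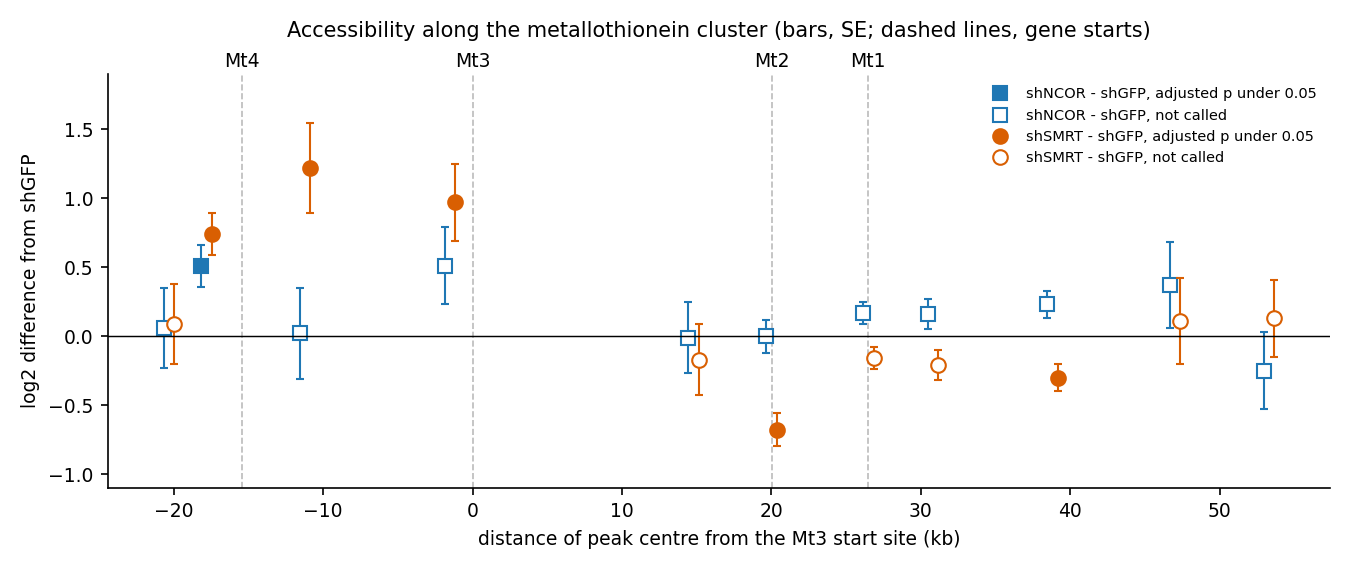
Log2 difference from shGFP of the 11 ATAC peaks of the cluster, plotted by distance of the peak centre from the Mt3 start site (kb); squares are shNCOR and circles shSMRT, filled where the adjusted p is under 0.05, with SE bars and dashed lines at the gene starts. Filled circles lie above 0 left of the Mt3 start (0.74, 1.22 and 0.97) and below 0 at Mt2 (-0.68) and beyond Mt1 (-0.30).

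Slc30a1 had more RNA in shSMRT but a less accessible promoter. Its promoter peak (chr1:191906260-191907075) was at 238, 241 and 221 in shGFP, 198, 213 and 209 in shNCOR and 143, 200 and 161 in shSMRT. The shSMRT values lay below all shGFP values, a difference of -0.48 ± 0.11 (limma, adjusted p = 0.00174) that was called under all 16 alternatives (-0.60 to -0.33). Against shNCOR the difference of -0.30 ± 0.11 (adjusted p = 0.0376) lost its call under 9 of 16, and in shNCOR that from shGFP was -0.17 ± 0.11 (adjusted p = 0.379). Of the 4 peaks upstream, the one 27832 bases before the start (chr1:191878865-191879033) rose to 51.6, 64.7 and 94.8 in shSMRT from 38.0, 50.6 and 43.3 in shGFP (0.59 ± 0.22; limma, adjusted p = 0.0491). That call ended under 9 of 16 alternatives. The peaks 30954, 28559 and 12218 bases before the start were not called in any contrast.

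Mtf1 had no peak called against shGFP in either knockdown. Its promoter peak (chr4:124802006-124802650) was at 313, 239 and 243 in shGFP, 261, 295 and 283 in shNCOR and 209, 238 and 235 in shSMRT. The difference between shSMRT and shGFP was -0.21 ± 0.10 and was not called (limma, adjusted p = 0.161). Against shNCOR it was called at -0.29 ± 0.10 (adjusted p = 0.0302), which ended under each of the 3 other scalings and without any 1 of 3 libraries. The 2 peaks in intron 2 of Mtf1 were weak, at 11.6 to 39.6 in the 9 libraries, and were not called in any contrast.

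Of the other listed genes of the SLC30 family, known mainly as zinc exporters, 5 of 9 were tested. Against shGFP, limma called 0 higher and 2 lower in shNCOR, or 40.0%, near the 37.6% over all genes. In shSMRT it called 1 higher and 2 lower, or 60.0%, near the 55.8% over all genes. Between shSMRT and shNCOR, with 51.8% of all genes called, 1 was higher and 1 lower. Slc30a4, the exporter known from milk and endosomes, was at 5.52 to 5.86 RPKM in shGFP. It fell in shNCOR, to 3.98 to 4.42 (log2 difference -0.38 ± 0.05; limma, adjusted p = 0.000155), and rose in shSMRT, to 7.32 to 7.56 (0.33 ± 0.05; adjusted p = 0.000235). Slc30a5, which loads zinc into the secretory pathway, was lower in both, by -0.09 in shNCOR and -0.13 in shSMRT; the first call ended under 6 of 16 alternatives and the second under quantile normalization. Slc30a6, its partner, was lower in shSMRT (-0.18), and Slc30a9 was lower in shSMRT than in shNCOR (-0.10), a call that ended under 10 of 16. Slc30a2, Slc30a3, Slc30a8 and Slc30a10 were listed at 0 in all libraries.

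The SLC39 importers, which carry zinc into the cytosol, had 10 of 14 members past the filter, Slc39a8 only through its shSMRT libraries, so 9 were counted. In shNCOR against shGFP 1 rose and 2 fell, or 33.3% beside 37.6% of all genes, with a median difference of -0.06. In shSMRT against shGFP 3 rose and 2 fell, 55.6% beside 55.8%, with a median of 0.06 beside -0.022 over all genes. In shSMRT against shNCOR 5 rose and 1 fell, 66.7% beside 51.8%, with a median of 0.11 beside -0.024. Slc39a14, an importer of zinc and iron, fell in shNCOR from 20.4 to 21.6 RPKM in the controls down to 9.88 to 10.8 (-0.94 ± 0.04; limma, adjusted p = 1.95e-08). With the SMRT hairpin it fell to 16.7 to 17.1 (-0.29 ± 0.04; adjusted p = 0.000134), a level above that of shNCOR (0.66 ± 0.04; adjusted p = 2.57e-07). Slc39a10 fell in shNCOR (-0.23 ± 0.04; adjusted p = 0.00189) and rose in shSMRT (0.43 ± 0.04; adjusted p = 1.16e-05), with 0.66 ± 0.04 between the knockdowns (adjusted p = 4.56e-07).

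Slc39a13, an importer of the secretory pathway, rose in shSMRT against shGFP (0.55 ± 0.06; limma, adjusted p = 2.12e-05). Slc39a8, an importer of zinc and manganese, was at 0.384 to 0.424 RPKM in shGFP, 0.26 to 0.362 in shNCOR and 1.03 to 1.29 in shSMRT, given with no test. Slc39a11 fell from 17.8 to 18.7 RPKM in shGFP to 11.3 to 11.8 in shSMRT (-0.62 ± 0.04; adjusted p = 2.59e-07). Slc39a7, of the endoplasmic reticulum, rose in shNCOR by 0.09, and Slc39a6 was higher in shSMRT than in shNCOR by 0.09. The first call ended without any 1 of 4 libraries, and the second under 6 of 16 alternatives.

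**Figure D4:**
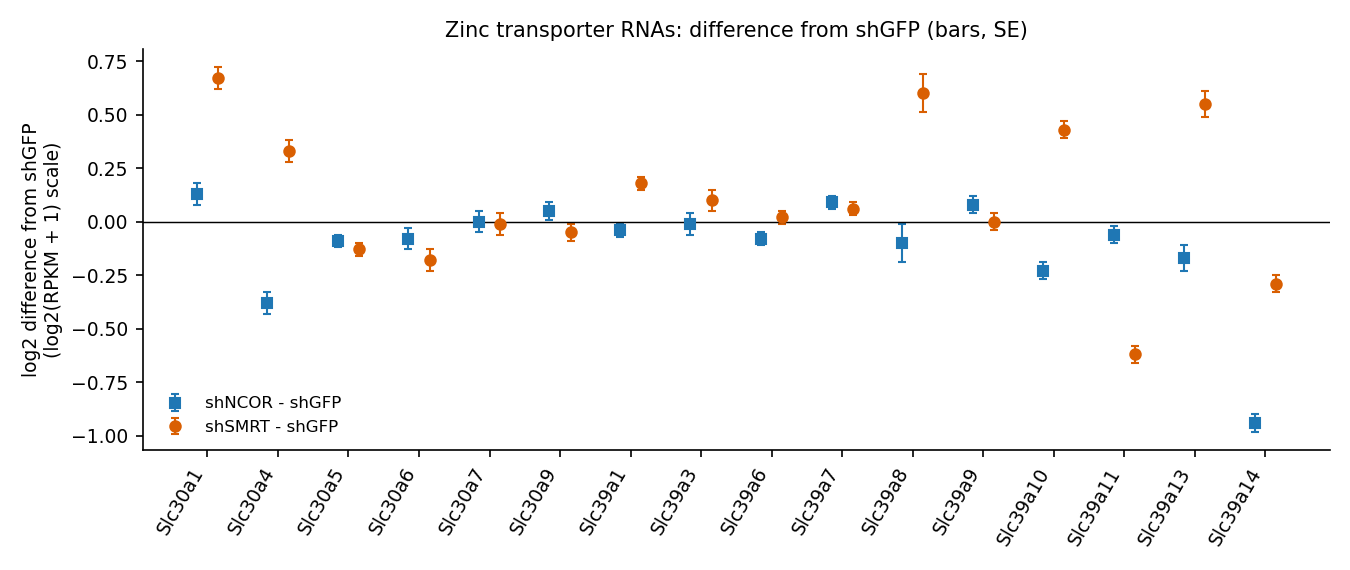
Log2 difference from shGFP, on the log2(RPKM + 1) scale, of Slc30a1 and the 15 other zinc transporters that passed the filter; squares are shNCOR and circles shSMRT, with SE bars. Slc30a4 lies at -0.38 in shNCOR and 0.33 in shSMRT, and Slc39a14 at -0.94 and -0.29.

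Among 14 genes known to respond to metals, oxidants or heat, of which 11 were tested, 6 rose and 0 fell in shSMRT against shGFP, a share near the 55.8% over all genes, with a median of 0.25. Against shNCOR 6 rose and 0 fell as well (background 51.8%), with a median of 0.20. Hmox1, the heme oxygenase, rose from 69.2 to 74.2 RPKM in shGFP to 159 to 164 in shSMRT (1.17 ± 0.03; limma, adjusted p = 8.47e-10), and Slc40a1, the iron exporter ferroportin, from 3.46 to 4.25 up to 9.76 to 10.4 (1.21 ± 0.06; adjusted p = 6.79e-08). Srxn1 and Selenow, an antioxidant enzyme and a selenoprotein, rose by 0.25 and 0.28. In shNCOR against shGFP 2 rose, Hmox1 by 0.15 and Gclc, of glutathione synthesis, by 0.10, and 2 fell, Hsph1 by 0.29 and Selenow by 0.25. Called genes were 36.4% of those tested, near the 37.6% over all genes. The call of Gclc ended under 5 of 16 alternatives. Hspa1a, Hspb1 and Nqo1, which respond to heat or oxidants, did not exceed 0.266 RPKM in any library.

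Copper-handling genes went both ways, with 9 of 11 tested. The numbers that rose and fell were 3 and 3 in shNCOR against shGFP, 4 and 4 in shSMRT against shGFP, and 2 and 3 in shSMRT against shNCOR, with medians of 0.09, -0.05 and -0.07. These are 66.7%, 88.9% and 55.6% of the list, beside 37.6%, 55.8% and 51.8% of all genes. Atp7a, the copper-exporting ATPase, rose in both knockdowns, with log2 differences of 0.41 ± 0.06 (limma, adjusted p = 0.00016) for shNCOR and 0.54 ± 0.06 (adjusted p = 1.04e-05) for shSMRT. Slc31a2, a copper transporter of endosomes, rose by 0.79 ± 0.07 in shSMRT (adjusted p = 2.42e-06), and its lower level in shNCOR (-0.21) lost its call under 4 of 16 alternatives. Sod1, copper-zinc superoxide dismutase, fell by 0.22 in shNCOR and 0.29 in shSMRT, and its copper chaperone Ccs rose by 0.23 and 0.21.

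In shSMRT against shGFP Steap3, a metalloreductase, fell by 0.39 and Commd1, a regulator of copper export, by 0.36. Between the knockdowns, Steap3 (-0.55) and Slc31a1, the main copper importer (-0.26), were lower in shSMRT, and Slc31a2 (1.00) and Cox17, the chaperone of cytochrome oxidase (0.33), were higher.

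Glucocorticoids induce Mt1 and Mt2, and 8 of 10 glucocorticoid-induced genes were tested. In each of the 3 contrasts 2 rose and 1 fell, or 37.5%, beside 37.6%, 55.8% and 51.8% of all genes, with medians of 0.06, 0.13 and 0.09. Dusp1, a MAP kinase phosphatase, rose in both knockdowns (shNCOR 0.60 ± 0.06, limma, adjusted p = 1.95e-05; shSMRT 1.31 ± 0.06, adjusted p = 3.12e-08). Klf9 rose by 0.25 and 0.23 (the second 0.15 with quantile normalization), while Fkbp5, a chaperone of the receptor, fell by 0.15 in shNCOR and 0.20 in shSMRT. Tsc22d3 was lower in shSMRT than in shNCOR (-0.30), and Per1 was higher (0.14), a call that ended under 11 of 16 alternatives.

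Markers of the macrophage itself also moved with the hairpins. Of 9 tested, 3 rose and 3 fell in shNCOR against shGFP, 8 rose and 1 fell in shSMRT against shGFP, and 8 rose and 0 fell in shSMRT against shNCOR. The called shares were 66.7%, 100.0% and 88.9%, beside 37.6%, 55.8% and 51.8% of all genes. Against shGFP, Adgre1 rose by 0.52 in shNCOR and 0.85 in shSMRT. Csf1r and Itgam fell in shNCOR, both by 0.27, and were higher in shSMRT than in shNCOR, both by 0.78. Cd68 was higher in shSMRT than in shGFP (0.08), a call that ended under 3 of 16 alternatives, and Cd14 was lower (-0.14, or -0.23 with quantile normalization). The part of these changes in the levels of the 5 zinc genes was not tested.

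The genes whose pattern over the 9 RNA libraries lay nearest to a metallothionein differed by member. Likeness was the root mean square distance between log2(RPKM + 1) values centred on each gene's own mean. For Mt3 the nearest 5 were Tnc, a matrix glycoprotein (distance 0.106), Uchl1, a deubiquitinase (0.219), Rgs16, a regulator of G proteins (0.295), Pdcd1, the PD-1 receptor (0.354), and Csf1, the macrophage growth factor (0.356). Tnc, like Mt3, was close to 0 in shGFP (0.018 to 0.074 RPKM) and in shNCOR (0.072 to 0.148) and lay at 6.92 to 7.66 in shSMRT. This likeness follows from how the genes were picked and is a description only. Tnc, Rgs16, Pdcd1 and Csf1 reached 1 RPKM only in shSMRT libraries. For Mt1 they were Cetn2, Fam162a, Cmc2, Psma2 and Mmadhc, at 0.0249 to 0.0353. For Mt2 they were Phf11c, Tmem241, Actb, Cep44 and Nmt1, at 0.0745 to 0.0789.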

How the data were processed

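The members, lists and tests were chosen with earlier results of these data known. The deposited RNA values are RPKM; per the file headers, HOMER counted reads on both strands over exons of mm10 RefSeq transcripts, 1 per gene, so overlapping, antisense or near-identical genes cannot be told apart. The other deposited unit, for ATAC, is the reads of a peak, with each library scaled to 10 M, over a merged peak list that HOMER annotated, per the file headers; no shift for the transposase is stated. Without versions or roles, the submitters' processing notes list mm10, mm9, MACS2, DESeq2, HISAT2 and Bowtie2 beside HOMER. Groups follow the titles, which name hairpins, although the labels' text on ATAC speaks of wild-type cells. Of 51984 ATAC peaks, 1 held no number and was left out.

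Depths were recovered from the value of 1 read: 100% of the values tested were whole numbers of reads (tolerance 0.1 read). Within groups, every pair of libraries differed by more than sampling noise (chi-square of 1.64 to 9.65 per feature). For each assay a single limma fit (3.58.1, R 4.3.3; mean-variance trend) took in all 9 libraries. It used log2(RPKM + 1) for 10789 genes reaching 1 RPKM in 3 or more libraries, and log2(value + 5) for 51469 peaks reaching 10 in 3 or more. Calls are at a Benjamini-Hochberg adjusted p under 0.05 over all features. The fits were also run on simulated counts, with changes planted only at features well above the filters. That run does not bear on weak peaks or on changes smaller than those planted. Alternatives were other pseudocounts, filters, scalings, 6-library fits, a replicate block and leaving out each library; voom on recovered reads was chosen after seeing the data. Named are every member and member peak, Mt4 and the other peaks of its cluster, Ncor1, from each of 10 lists the 2 called genes with the largest and 2 with the smallest difference per contrast, the 5 nearest patterns of each metallothionein, and promoter motifs; other marker and uncalled list genes are named for their levels, after these were seen. Part of what the rule names is not reported here. Figures were drawn with matplotlib 3.10.9.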

Additional observations from a re-analysis of the deposited data

How the results depend on the processing

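Among the named results no alternative reversed a called direction. Of 15 calls at single peaks 6 held under all 16 alternatives (the Mt2 promoter in both contrasts with shSMRT, the Slc30a1 promoter against shGFP, the peak before Mt4 against shGFP, the peak between Mt4 and Mt3 and that beyond Mt1 against shNCOR), and of 64 calls at named genes (Slc39a8 left out) 53 held. Leaving out 1 library gave 2544 to 4588 calls in shNCOR against shGFP (4414 with all; 2840, 2544 and 2738 without shGFP replicate 1, 2 or 3), 5119 to 10180 in shSMRT against shGFP (9101; lowest without shGFP replicate 1) and 8920 to 12131 between the knockdowns (12564). That last count was 5951 with quantile normalization, 7703 with scaling to the reads in peaks and 6494 with voom. The RNA counts of 4056, 6016 and 5590 ranged over 3364 to 3942, 5311 to 6223 and 4960 to 5597. Leaving out 1 library gave Slc30a1 differences of 0.11 to 0.18 in shNCOR. With quantile normalization the shSMRT differences from shGFP and shNCOR were -0.15 and -0.20 for Mt1, -0.10 and -0.18 for Mtf1, and 2.86 from shNCOR for Mt3. A pseudocount of 0.1 gave 5.98 and 5.52 for Mt3 and 0.74 from shGFP for Slc30a1, and voom gave 7.62 and 6.44 for Mt3 and 0.76 and 0.61 for Slc30a1; both scales compress low values less than a pseudocount of 1 does, and for the other changes the cause was not tested. Deviations of same-numbered libraries were at most weakly correlated (-0.06 to 0.105 in RNA and -0.043 to 0.022 in ATAC). Between differently numbered libraries the correlations were -0.126 to 0.081 in RNA and -0.04 to 0.05 in ATAC. The replicate block gave more called genes (4255, 6156 and 5740) and fewer called peaks (4248, 8646 and 12085). Whether the RNA libraries were weakly paired was not tested further. At this depth the peak before Mt3 rested on 16 to 68 reads a library, and Mt3 RNA outside shSMRT on 0 to 2 reads a library.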
